A study of Mus musculus with 7 samples.

Results

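Expression of 10 genes for the recognition of dying cells and of modified lipoproteins was examined in microglia of an amyloid mouse model with and without B2m. They were the TAM receptor kinases Mertk, Axl and Tyro3, their bridging ligands Gas6 and Pros1, and the scavenger receptors Msr1, Cd36, Scarb1, Marco and Stab1. The members were chosen by gene symbol, and each of the 10, out of 19505 named genes on the array, was read by 1 probe set. Microglia were sorted from mouse brain as viable CD45+ CD11b+ cells, a gate that also admits other myeloid cells. All mice were 5xFAD on the C57BL/6 strain, a model in which neurons express human amyloid transgenes from the Thy1 promoter. The comparison set 3 arrays of 5xFAD;B2m+/+ microglia against 4 arrays of 5xFAD;B2m–/– microglia, with no label for age, sex or litter. B2m encodes the light chain of MHC class I, little of which reaches the cell surface without it. The sources used here do not say how many animals each sample held or whether arrays came from separate ones, so p-values here reflect variation among 7 samples that may partly be technical.

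TAM receptors sit on phagocytes and do not touch a dying cell directly. Gas6 and protein S, the product of Pros1, bind phosphatidylserine exposed on that cell through a vitamin K-dependent domain and bind the receptor at their other end. Gas6 engages Axl, Mertk and Tyro3, whereas protein S engages Mertk and Tyro3. In the brain, Mertk is a receptor of resting microglia and Axl is raised in microglia around amyloid plaques. Scavenger receptors are a functional group of unrelated proteins that take up oxidised lipoproteins, lipids, bacteria and fibrillar amyloid.

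Upstream bases of Mertk and of both ligand genes are shown because the receptor and its ligands were all well detected. Each window of 250 bases lies wholly outside the gene it precedes, and overlap with other genes was not checked. The bases come from RefSeq on GRCm38.p6, whose promoter table matched 8 of the 10 members and had no entry for Msr1 or Scarb1. Capitals mark the GC box GGGCGG on either strand, a binding motif of Sp family factors.
Mertk, chr2:128698665-128698914, plus strand: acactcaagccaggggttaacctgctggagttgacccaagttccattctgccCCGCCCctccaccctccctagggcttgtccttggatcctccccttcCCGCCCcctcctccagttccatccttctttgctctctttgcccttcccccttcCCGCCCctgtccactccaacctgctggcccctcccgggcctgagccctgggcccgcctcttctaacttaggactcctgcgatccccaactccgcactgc
Gas6, chr8:13494536-13494785, minus strand: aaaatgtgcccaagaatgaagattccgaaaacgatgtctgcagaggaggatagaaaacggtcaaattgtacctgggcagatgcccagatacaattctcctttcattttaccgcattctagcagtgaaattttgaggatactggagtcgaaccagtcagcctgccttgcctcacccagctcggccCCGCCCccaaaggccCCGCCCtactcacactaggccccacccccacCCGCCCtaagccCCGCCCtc
Pros1, chr16:62854057-62854306, plus strand: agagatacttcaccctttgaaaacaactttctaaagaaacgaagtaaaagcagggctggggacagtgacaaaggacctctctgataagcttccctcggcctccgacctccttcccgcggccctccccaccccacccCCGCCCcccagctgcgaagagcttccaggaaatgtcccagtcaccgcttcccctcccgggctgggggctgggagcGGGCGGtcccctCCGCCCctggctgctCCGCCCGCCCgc
The GC box matched 3 times upstream of Mertk, 4 times upstream of Gas6 and 5 times upstream of Pros1, where the last 2 matches overlap. Over all 32851 promoter windows of the same length, 32.7% held at least 1 match. The G and C content was 63.6%, 54.8% and 64.4%, against a median of 52.4% over all windows. Searches on both strands for the TATA box TATAAA (in 12.4% of all windows) and for the nuclear receptor half-site AGGTCA (14.0%) found neither in the 3 windows.

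B2m itself, the targeted gene, had a wildtype mean of 13.41 ± 0.017 (SD, n = 3) and a knockout mean of 10.41 ± 0.13 (SD, n = 4) on the log2 scale. Array medians over named genes lay between 7.92 and 7.99, and the 95th percentile of the array's own negative control rows lay between 9.35 and 9.55. All 13 named microglial markers lay above that percentile on all 7 arrays, Sparc, Csf1r and P2ry12 among them. All 10 astrocyte, 9 oligodendrocyte and 8 T cell markers that were named lay below it on every array. Summed levels below are log2 of the sum of the linear values of a marker list. Neutrophil markers summed to between 13.96 and 14.65 on wildtype arrays and to between 13.95 and 15.48 on knockout arrays, with the highest value in knockout replicate 4, and 5 of 10 lay above the percentile on every array. Monocyte markers summed to between 11.94 and 12.55 and to between 12.27 and 13.38. Of 9 named, 1 (Fn1) lay above the percentile on every array and 2 below it on every array. At an unadjusted p under 0.05, where 8.39% of all tested genes were higher and 3.54% lower in knockout arrays, 1 of 10 tested neutrophil and 5 of 8 tested monocyte markers lay higher and 0 of either lower. Endothelial markers summed to between 14.74 and 15.20 on wildtype arrays and to between 14.72 and 14.90 on knockout arrays, with 6 of 15 tested markers lower and 0 higher at that level. Of 16 named, 7 lay above the percentile on every array and 6 below it on every array. Mural cell markers summed to between 11.70 and 12.43 and to between 11.73 and 11.86, with 3 of 7 tested lower and 0 higher. Of 10 named, 1 (Vtn) lay above the percentile on every array and 7 below it on every array. Neuronal markers summed to between 11.82 and 11.92 and to between 11.70 and 11.98, and 8 of 10 lay below the percentile on every array. In limma, 0 markers of these lists or of the border-associated macrophages described below passed an adjusted p of 0.05, and the part of such cells in the member values was not tested. In sorted cells taken in bulk, fewer cells of a type and less RNA per cell cannot be told apart.

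None of the 10 members passed a test between genotypes. For the 6 that exceeded the filter on dim genes, confidence intervals are given per gene, not adjusted for the number of genes. These intervals may be too narrow for a difference between animals, because variation among the samples may partly be technical. A gene was tested when it exceeded the array's median over named genes on at least 3 of the 7 arrays, which held for 6 members: Mertk, Axl, Gas6, Pros1, Scarb1 and Stab1. Among the 6, 4 had differences above 0 and 2 below, where 48.6% of all tested genes lay above 0, and the median difference was 0.061, against -0.0055 over all 10004 tested genes. In limma, 0 of the 6 passed an adjusted p of 0.05, where 0.05% of all tested genes did, and 0 reached an unadjusted p under 0.05, where 11.9% did (8.39% higher and 3.54% lower). In a fit with no filter, 0 of the 10 members passed, where 0.0256% of all 19505 genes did. The 95% confidence intervals of the 6 ran from 0.707-fold at the low end for Stab1 to 1.42-fold at the high end for Gas6. The groups overlapped in all 6, where 10.9% of tested genes did not overlap. Tyro3, Msr1, Cd36 and Marco lay below the filter, with 1 array of Tyro3 and none of the others above the array median. All 6 tested members exceeded the median on all 7 arrays.

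**Figure D1:**
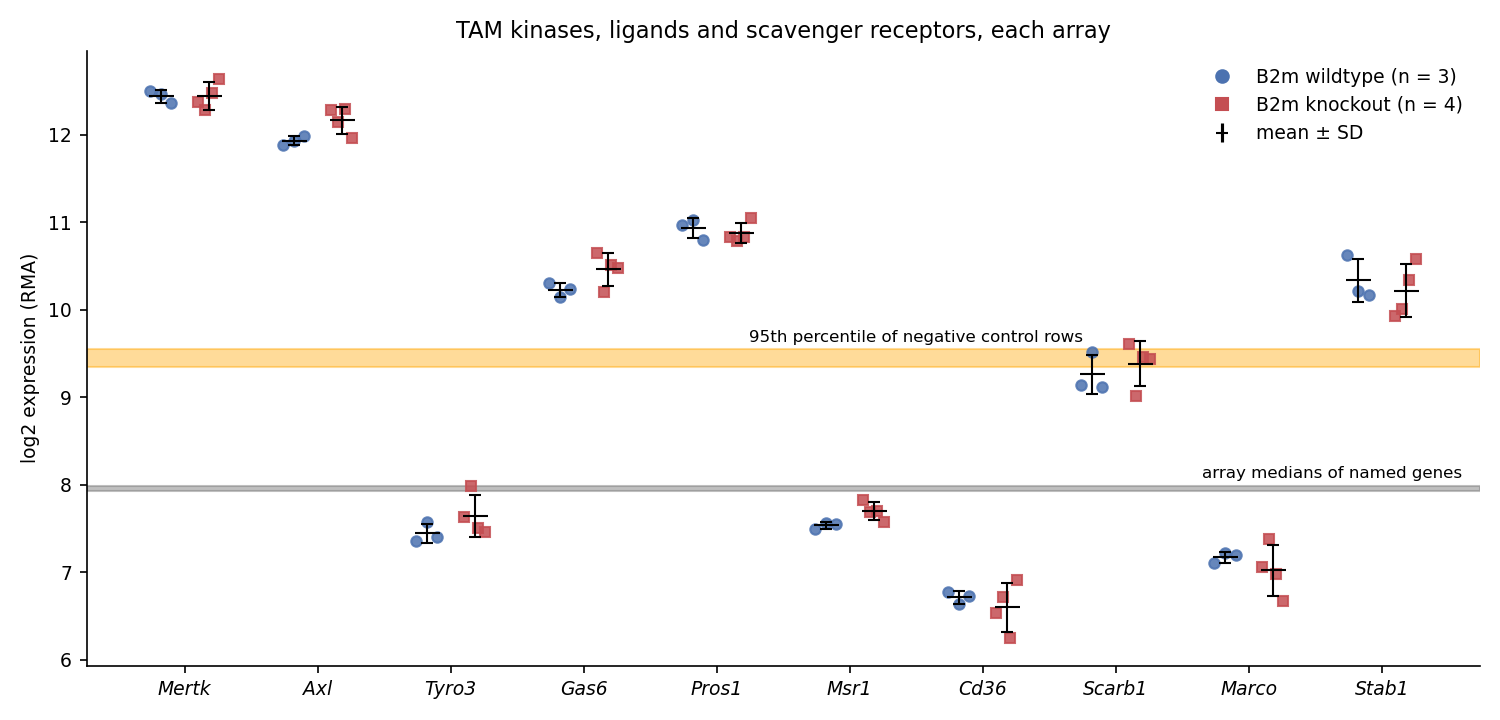
Points are log2 expression on single arrays for each member (circles, 3 B2m wildtype; squares, 4 B2m knockout), with black marks for the mean ± SD of a genotype. The grey band spans the array medians of named genes and the orange band the 95th percentile of negative control rows over the 7 arrays; Tyro3, Msr1, Cd36 and Marco lie at or under the grey band, and levels of different genes are not comparable because each probe set has its own response.

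**Figure D2:**
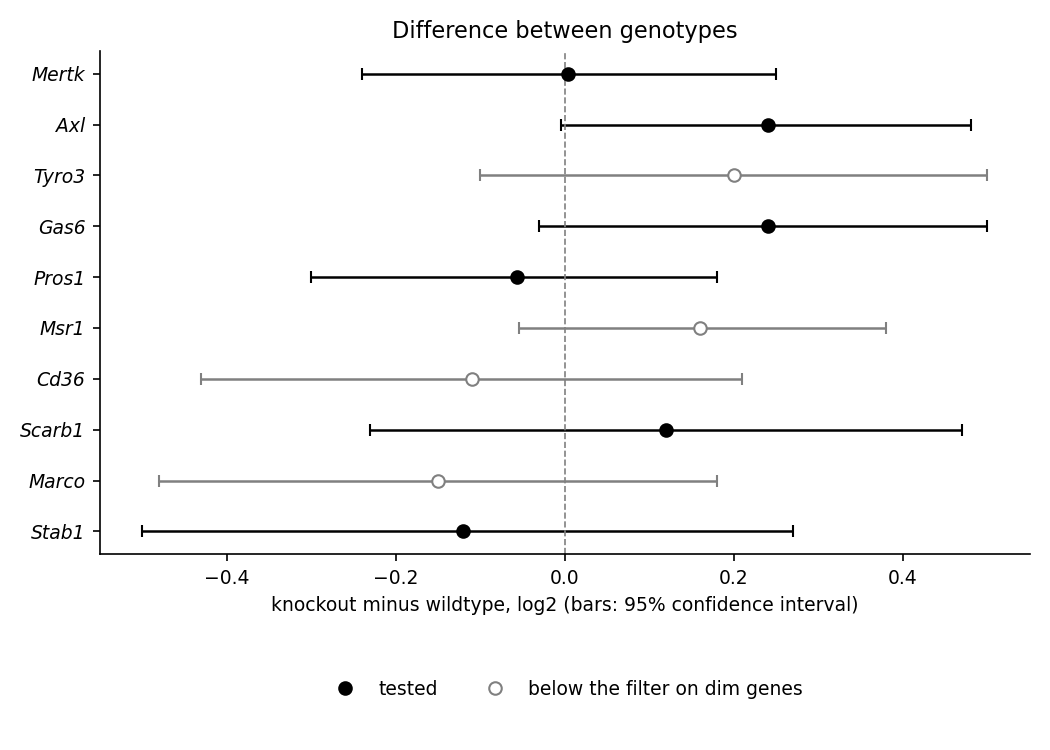
Points are the knockout minus wildtype difference on the log2 scale and bars its 95% confidence interval from limma; open grey points are the 4 members below the filter, fitted without it. All 10 intervals include 0, with Axl (-0.0041 to 0.48) and Gas6 (-0.03 to 0.50) leaning furthest to the knockout side.

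Mertk, the receptor kinase by which resting microglia engulf apoptotic cells, did not separate the genotypes. The wildtype arrays read 12.50, 12.46 and 12.36, and the knockout arrays 12.37, 12.28, 12.48 and 12.64. The wildtype values lay inside the range of the knockout values. The means were 12.44 ± 0.072 (SD, n = 3) and 12.44 ± 0.15 (SD, n = 4), a difference of 0.0035 (SE 0.11, limma adjusted p = 0.993). The interval of the fold ran from 0.846 to 1.19, and Mertk exceeded 99.5% to 99.6% of negative control rows on every array. The sign of so small a difference changed with the array left out, from -0.062 without knockout replicate 4 to 0.058.

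Axl, the TAM kinase that is induced by interferon and inflammation, had a difference that did not pass, of about the size of that of its ligand Gas6. Its values were 11.88, 11.93 and 11.99 on the wildtype and 12.28, 12.14, 12.29 and 11.96 on the knockout arrays. Knockout replicates 1, 2 and 3 lay above every wildtype array, while knockout replicate 4 lay between wildtype replicates 2 and 3. The means were 11.93 ± 0.052 (SD, n = 3) and 12.17 ± 0.15 (SD, n = 4). The difference was 0.24 (SE 0.11, limma adjusted p = 0.428), or 1.18-fold with an interval of 0.997 to 1.39. It was larger in size than 81.0% of all tested differences, and 1244 of the tested genes had a smaller unadjusted p. Over 17 alternatives the difference stayed between 0.198 and 0.306 and the adjusted p at 0.229 or above.

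Tyro3, the TAM kinase best known in neurons, was near background in these cells. It read 7.36, 7.57 and 7.40 on the wildtype and 7.63, 7.98, 7.50 and 7.46 on the knockout arrays. These values exceeded 70.8% to 81.3% of the negative control rows, so no fold is given. Knockout replicate 2 was the highest and the groups overlapped. Fitted without the filter, the difference was 0.20 (SE 0.14, limma adjusted p = 0.687), and without knockout replicate 2 it was 0.086.

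Both bridging ligands were detected in the sorted cells themselves. Gas6 read 10.30, 10.14 and 10.24 on the wildtype and 10.65, 10.20, 10.51 and 10.48 on the knockout arrays. Knockout replicates 1, 3 and 4 lay above the wildtype arrays and knockout replicate 2 lay within them. The means were 10.22 ± 0.078 (SD, n = 3) and 10.46 ± 0.19 (SD, n = 4). The difference was 0.24 (SE 0.12, limma adjusted p = 0.474), or 1.18-fold with an interval of 0.979 to 1.42. The knockout array that lay within the wildtype range was replicate 2 for Gas6 and replicate 4 for Axl. Neither gene passed without that array, at a limma adjusted p of 0.454 for Gas6 and 0.229 for Axl.

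Pros1, which encodes the anticoagulant and TAM ligand protein S, read 10.97, 11.03 and 10.80 in wildtype arrays. The knockout arrays read 10.83, 10.79, 10.83 and 11.05. Knockout replicate 4 was the highest of the 7, and the other knockout arrays lay at or close to wildtype replicate 3. The difference was -0.057 (SE 0.11, limma adjusted p = 0.869), 0.961-fold with an interval of 0.815 to 1.13. Its residual spread between arrays of a genotype was 0.12, lower than in all but 25.3% of tested genes, so that among the members the interval of Pros1 was one of the tighter ones. Endothelial cells also make protein S, and their part in the Pros1 values was not tested. Their markers were highest in wildtype replicates 2 (15.20) and 1 (15.17), the arrays next highest in Pros1 (11.03 and 10.97). They were lowest in knockout replicate 4 (14.72), the array highest in Pros1.

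The scavenger receptors divided into 2 that were tested and 3 that were dim. Scarb1, a receptor for high-density lipoprotein that binds fibrillar amyloid, read 9.14, 9.52 and 9.12 on the wildtype and 9.61, 9.01, 9.46 and 9.44 on the knockout arrays. The highest and the lowest array were both knockout. The difference was 0.12 (SE 0.16, limma adjusted p = 0.802). Only 2 of the 7 arrays exceeded the 95th percentile of negative control rows. The difference was 0.247 without wildtype replicate 2, 0.243 without knockout replicate 2, and 0.043 without knockout replicate 1.

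Stab1, a large endocytic receptor of macrophages and sinusoidal endothelium, was the most variable tested member. It read 10.62, 10.21 and 10.17 on the wildtype and 9.93, 10.01, 10.34 and 10.58 on the knockout arrays. Wildtype replicate 1 and knockout replicate 4 were the highest, and knockout replicates 1 and 2 the lowest. Its residual spread of 0.28 exceeded that of 89.2% of tested genes. The difference was -0.12 (SE 0.17, limma adjusted p = 0.828), and without wildtype replicate 1 it was 0.024. Border-associated macrophages also carry Stab1. Of their 12 named markers, Mrc1 and Pf4 exceeded the 95th percentile of negative control rows on every array, and 7, Cd163 and Lyve1 among them, were under it on every array. Their summed level ran from 12.27 to 12.82 over wildtype arrays and from 12.38 to 12.60 over knockout arrays. The part of these cells in the Stab1 values was not tested.

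Msr1, scavenger receptor A, was the 1 member whose genotypes did not overlap, at values near background. It read 7.49, 7.56 and 7.55 on the wildtype and 7.82, 7.69, 7.70 and 7.57 on the knockout arrays. The gap between knockout replicate 4 and wildtype replicate 2 was in the second decimal. Without the filter, 4.4% of 19505 genes had all knockout arrays above all wildtype arrays. The difference was 0.16 (SE 0.097, limma adjusted p = 0.647 without the filter). No array exceeded its median over named genes, and the values lay above 72.6% to 79.8% of negative control rows, so no fold is given.

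Cd36, the fatty acid and oxidised lipoprotein receptor, read 6.77, 6.63 and 6.73 on the wildtype and 6.53, 6.71, 6.25 and 6.91 on the knockout arrays. Its knockout values spread to both sides of the wildtype values. It lay above 50.5% to 61.4% of negative control rows, and the difference fitted without the filter was -0.11 (SE 0.15, limma adjusted p = 0.855). Marco, a collagenous receptor of tissue macrophages, read 7.10, 7.22 and 7.19 on the wildtype and 7.06, 7.38, 6.98 and 6.67 on the knockout arrays. It lay above 56.8% to 72.3% of negative control rows, and its difference was -0.15 (SE 0.15, limma adjusted p = 0.795). At these levels neither gene can be told from background.

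Mertk and Tyro3 share chromosome 2 with B2m. In the gene order of GRCm38.p6, 28 tested genes lay between Tyro3 and B2m, and Mertk was the 32nd tested gene on the other side. Both are close to genes that passed the test. Tyro3 lay between B2m and Spint1, a serine protease inhibitor gene with a measured difference of -4.75 (SE 0.13, limma adjusted p = 2.17e-08). Mertk lay 5 tested genes beyond Kcnip3, the calsenilin gene, with a measured difference of -2.25 (SE 0.14, limma adjusted p = 2.44e-05), and Gatm, the creatine synthesis gene next to B2m, was 1.95 higher (SE 0.10, limma adjusted p = 6.03e-06). Spint1 and Kcnip3 passed the filter on the 3 wildtype arrays alone, and 0 of the 4 knockout arrays exceeded the 95th percentile of negative control rows for either gene, so both differences were measured against a group near background and no fold is given. Beside Mertk, the nearest tested genes Anapc1 and Tmem87b differed by 0.033 (SE 0.14) and -0.0078 (SE 0.10), with limma adjusted p of 0.944 and 0.985. Beside Tyro3, Rpap1 differed by 0.062 (SE 0.13) and Mga by -0.42 (SE 0.22), with limma adjusted p of 0.880 and 0.485. The 95th percentile of negative control rows was exceeded on 1 array for Anapc1, 3 for Mga and 0 for Tmem87b and Rpap1. The differences of these neighbours are thus also limited by signal over background. Of the 59 tested genes from Tyro3 to Mertk, B2m left out, 2 passed, and 16 (27.1%) reached an unadjusted p under 0.05, where 11.9% of all tested genes did. Those 16 were 8 higher and 8 lower. The median difference of the 59 was -0.011. Tyro3 was too dim for a statement of size.

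**Figure D3:**
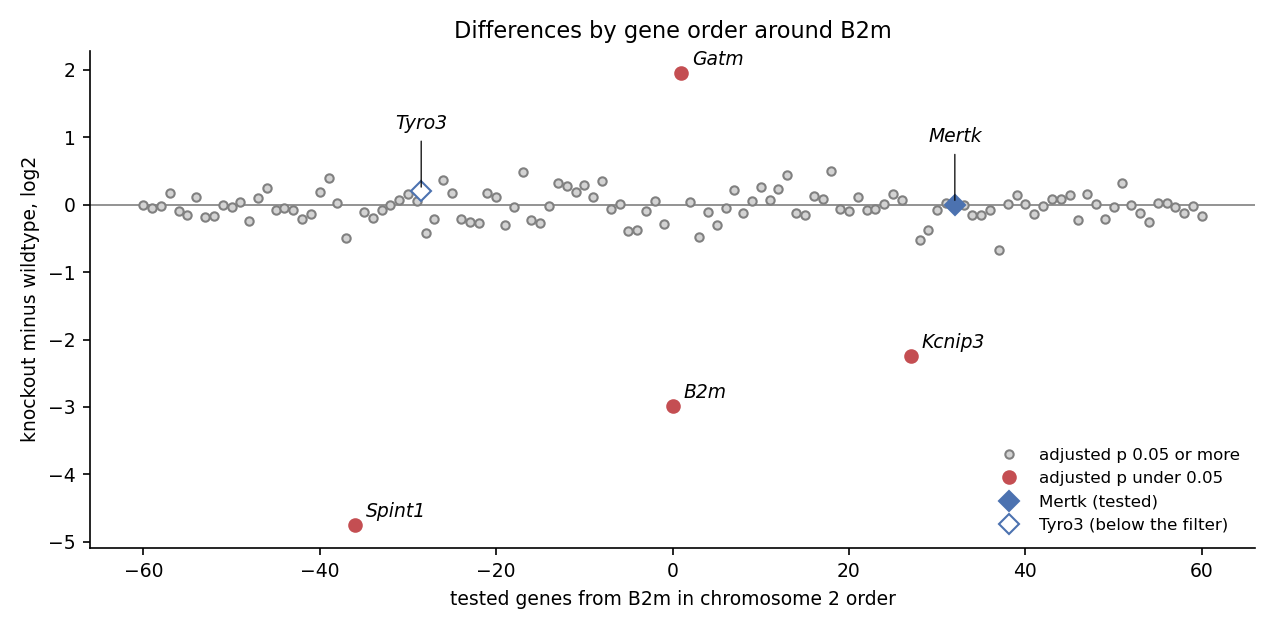
Each point is a tested gene of chromosome 2, placed by the number of tested genes from B2m (x axis) and by its knockout minus wildtype difference on the log2 scale (y axis); red points passed an adjusted p of 0.05. Mertk at 0.0035 and Tyro3 at 0.20 (open diamond, below the filter and placed between tested genes) sit in the band around 0, apart from Spint1, B2m, Kcnip3 and Gatm.

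The tested members did not all vary together from array to array. Over the 7 arrays, Pearson's r with Mertk was 0.85 for Stab1, 0.82 for Pros1, 0.43 for Scarb1, 0.29 for Gas6 and -0.38 for Axl. With Axl it was 0.65 for Gas6, 0.33 for Scarb1, -0.59 for Stab1 and -0.68 for Pros1, and none of these was tested. Pros1 was highest in knockout replicate 4, wildtype replicate 2 and wildtype replicate 1, and Axl was lowest in these same 3 arrays. They are the 3 arrays in which genes of long genomic span read higher than in the other arrays. Across 10002 genes, the rank correlation between span and an array's deviation from the gene means was 0.361, 0.136 and -0.150 for wildtype replicates 1 to 3 and -0.243, -0.254, -0.197 and 0.222 for knockout replicates 1 to 4. That value is across genes, which are no independent replicates. Stab1 and Mertk each had wildtype replicate 1 and knockout replicate 4 as their highest 2 arrays, and Msr1 had its lowest value in wildtype replicate 1. With the span trend removed from each array, an alternative chosen after seeing the data, the differences were 0.259 for Axl, 0.255 for Gas6, 0.054 for Mertk, -0.015 for Pros1 and -0.099 for Stab1. Without wildtype replicate 1 and knockout replicate 4 together, Axl differed by 0.281 and Stab1 by -0.099. In neither setting did a member pass.

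**Figure D4:**
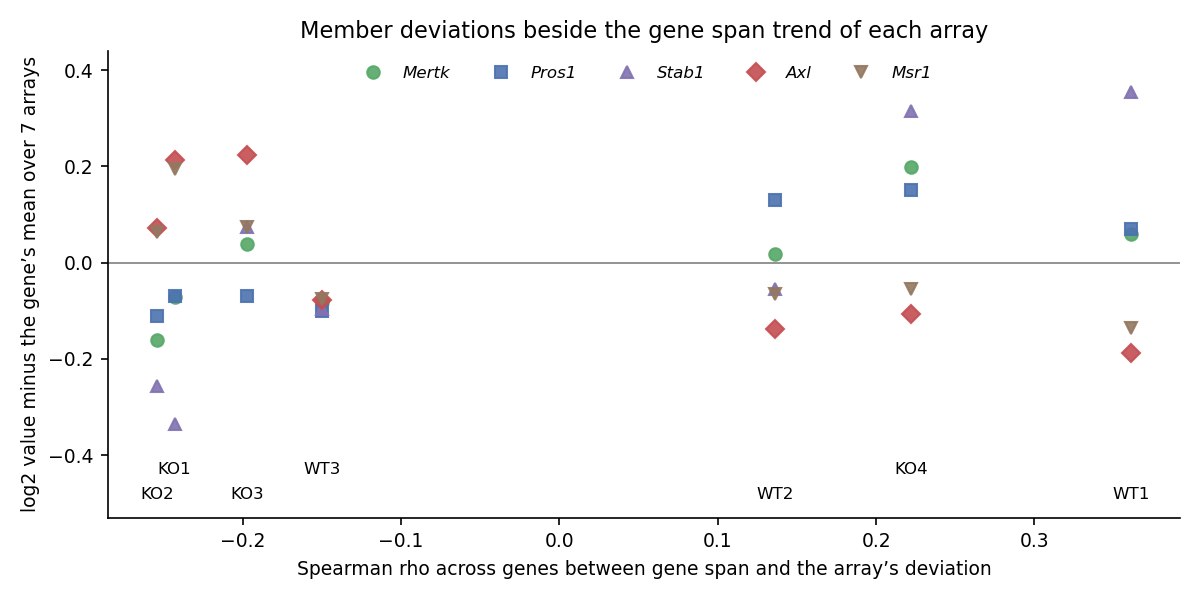
The x axis is Spearman's rho across genes between gene span and the array's deviation from gene means, and the y axis is a member's log2 value minus its mean over the 7 arrays, for 5 members; array names (WT, wildtype; KO, knockout) stand at the bottom. Axl lies below its mean and Pros1 above it in wildtype replicates 1 and 2 and knockout replicate 4, which have rho of 0.361, 0.136 and 0.222; both lie below their means in wildtype replicate 3.

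As a description over the 7 arrays, the tested genes most like Mertk were Tpp2, a peptidase gene (Pearson's r = 0.995), and B4galt1, a galactosyltransferase gene (0.992). For Axl they were Tmem9 (0.985) and Ywhah, a 14-3-3 protein gene (0.981). These are the highest of 10003 correlations for each receptor, over arrays that also share the span trend, and they carry no test.

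Genes that act beside the TAM system were counted from 5 lists, all against 11.9% of tested genes at an unadjusted p under 0.05. In limma, 0 of them passed an adjusted p of 0.05. Among genes of phosphatidylserine recognition and bridging, 17 of 23 were tested, 9 had differences above 0 and 8 below, and the median was 0.026. Of these, 1 was higher and 0 lower at the unadjusted level. It was Cd300lb, an activating receptor that binds phosphatidylserine, at 0.32 (SE 0.13, limma adjusted p = 0.386). It passed the filter on 3 arrays alone, all knockout, and lay under the 95th percentile of negative control rows on every array, so no fold is given. The lipid-sensing receptor Trem2 differed by 0.21 (SE 0.11) and its signalling partner Tyrobp by 0.19 (SE 0.11). Trem2 read 12.34, 12.33 and 12.58 on the wildtype and 12.72, 12.67, 12.60 and 12.53 on the knockout arrays, so that knockout replicate 4 lay below wildtype replicate 3.

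Of 20 other scavenger and modified-lipoprotein receptors, 10 were tested, 3 had differences above 0 and 7 below, and the median was -0.17. At the unadjusted level 1 was higher and 1 lower. Ager, the receptor for advanced glycation end products, had a wildtype mean of 8.45 ± 0.14 (SD, n = 3) and a knockout mean of 8.13 ± 0.068 (SD, n = 4), a difference of -0.33 (SE 0.10, limma adjusted p = 0.336). Every knockout array lay below every wildtype array, as in 3.8% of tested genes. Olr1, a receptor for oxidised low-density lipoprotein, differed by 0.38 (SE 0.14, limma adjusted p = 0.356) with overlap. Scarf2 differed by -0.29 (SE 0.14, limma adjusted p = 0.449). All 3 lay under the 95th percentile of negative control rows on every array, so no folds are given.

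The engulfment and phagosome machinery had 20 of 24 genes tested, 15 above 0 and 5 below, with a median of 0.034 and with 0 higher and 1 lower at the unadjusted level. The Rac activator Dock2 read 12.34, 12.05 and 11.97 on the wildtype and 11.83, 11.68, 11.70 and 12.02 on the knockout arrays. Knockout replicate 4 alone lay within the wildtype range, and the difference was -0.31 (SE 0.13, limma adjusted p = 0.389). Rhog, the small GTPase upstream of the Elmo and Dock proteins, differed by 0.17 (SE 0.095) and Elmo2 by -0.21 (SE 0.12). The genotypes did not overlap for Rhog, as in 10.9% of tested genes, nor for Grb2 and Plin2, described below. The transcripts of Dock2, Rhog and Elmo2 had differences of both signs, none of which passed.

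Of 20 genes of TAM signalling, feedback and shedding, 16 were tested, 5 above 0 and 11 below, with a median of -0.033 and with 1 higher and 0 lower at the unadjusted level. That gene was Lgals3, whose product galectin-3 is a reported ligand of Mertk, at 0.48 (SE 0.19, limma adjusted p = 0.386). Its wildtype mean was 10.31 ± 0.30 (SD, n = 3) and its knockout mean 10.79 ± 0.34 (SD, n = 4), with overlap. The adaptor Grb2 differed by 0.20 (SE 0.10) and the phosphatase Ptpn11 by -0.22 (SE 0.12). Among LXR, RXR and PPAR receptors and targets, a nuclear receptor system that raises Mertk, Axl and Cd36, 12 of 22 were tested, 4 above 0 and 8 below, with a median of -0.022. At the unadjusted level 1 was higher and 0 lower, the lipid droplet gene Plin2 at 0.31 (SE 0.13, limma adjusted p = 0.389). Fabp5, a fatty acid carrier, differed by 0.50 (SE 0.26) and Ppargc1b, a coactivator, by -0.15 (SE 0.12). Ppargc1b lay under the 95th percentile of negative control rows on every array, and Ptpn11 exceeded it on 2 arrays.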

How the data were processed

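The authors deposited log2 expression per probe set, which per the submitters' processing notes came from RMA in version 1.1 of Affymetrix Expression Console. RMA subtracts background, equalizes the arrays' distributions and combines probes into 1 value, so that changes shared by most genes are removed. The array's genome build was not given in the sources used here. Of 28846 rows, 19572 had 1 gene symbol, 0 several and 9274 none; all 19572 matched the RefSeq gene table of GRCm38.p6 by Entrez identifier, giving 19505 genes, used for names and gene order. Per gene the probe set with the highest mean was kept. Of 217 other genes listed, 14 were not named here. Rows tagged neg (5222) served as a guide to background. Tests used limma 3.58.1 in R 4.3.3 (lmFit, eBayes; checked on simulated data), Benjamini-Hochberg adjustment over all tested genes, and genotype from the labels. The number of arrays limits the precision. The members and lists were chosen with earlier results of these data known. Genes named were the members, called genes near B2m, the nearest tested neighbours of Mertk and Tyro3, up to 3 per list with the smallest unadjusted p, the 2 most like Mertk and Axl, and marker genes with the highest means. Cd163 and Lyve1 were named after their values were seen.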

Additional observations from a re-analysis of the deposited data

Results flagged for a closer look

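In the knockout arrays of Pros1, replicate 4 read 11.05 and stood apart from the other 3 knockout arrays, which read 10.79 to 10.83. Its gap to the nearest of them, as a share of the group's range, exceeded the Dixon limit of 0.829 for 4 arrays. The knockout group of each of the 10 members was examined in this way, and chance alone sets apart about 1 in 20 such groups. Without that array Pros1 differed by -0.115 between genotypes (limma adjusted p = 0.634). The same array was the highest for Mertk at 12.64 and had the highest sum of neutrophil markers at 15.48, whose part was not tested.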

How the results depend on the processing

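Over the alternatives run, 0 members passed an adjusted p of 0.05. Axl (0.198 to 0.306), Gas6 (0.173 to 0.324), Scarb1 (0.036 to 0.247) and Pros1 (-0.122 to -0.010) kept their sign in all 17, and the unadjusted p was under 0.05 in 8 for Axl and 2 for Gas6. Mertk changed sign with array weights (-0.0043), with repeated quantile normalization (-0.023) and with 1 array of each genotype, wildtype replicate 1 and knockout replicate 4, removed as a pair (-0.034), and leaving out single arrays gave -0.062 to 0.058; leaving out single arrays gave -0.241 to 0.024 for Stab1. Msr1 (0.119 to 0.203), Tyro3 (0.086 to 0.262), Marco (-0.269 to -0.032) and Cd36 (-0.216 to 0.0044, above 0 only without knockout replicate 3) are given for single arrays left out, with no test. Over all genes, 5 were called, and 4 to 26 with single arrays left out (26 without wildtype replicate 3). The list counts at an unadjusted p under 0.05 are small, and each moved with some of the choices. For phosphatidylserine recognition (1) they were 2 with array weights, centring or no filter, 3 with an intensity trend in the prior, robust or not, 0 with the stricter filter, and 0 to 3 with single arrays left out. For other scavenger receptors (2) they were 4 with repeated quantile normalization, 0 with the stricter filter and 1 to 3 with single arrays left out. For engulfment genes (1) they were 0 with centring or the span trend removed, 2 with such a trend, robust or not, with no filter or with repeated quantile normalization, and 0 to 2 with single arrays left out. For TAM signalling (1) they were 2 with centring or the span trend removed and 0 to 2 with single arrays left out. For LXR, RXR and PPAR genes (1) they were 2 with array weights or without the pair of arrays, 0 with repeated quantile normalization and 0 to 2 with single arrays left out. The causes were not tested. The settings that remove the span trend or a pair of arrays were chosen after seeing the data. No paired analysis was possible because the labels give no shared replicate numbers. Tyro3, Msr1, Cd36 and Marco are limited by signal over background.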

Other observations

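The genes in this paragraph were chosen after their values were seen. The differences of the 10 tested genes nearest to Mertk, 5 on each side, ran from -2.25 for Kcnip3 to 0.03 for Anapc1. Anapc1 alone lay above 0, and the median was -0.15, against -0.0055 over all tested genes. Of these 10, 1 passed in limma (Kcnip3) and 3 reached an unadjusted p under 0.05, where 0.05% and 11.9% of all tested genes did. Kcnip3 entered the tested set through the 3 wildtype arrays alone, and its knockout arrays lay near background. Mall, a membrane raft protein gene, differed by -0.377 (SE 0.103, limma adjusted p = 0.315) and Ckap2l, a mitotic spindle gene, by -0.676 (SE 0.158, limma adjusted p = 0.308), both with every knockout array below every wildtype array, as in 3.8% of tested genes. The apoptosis gene Bcl2l11 differed by -0.077 (SE 0.108, limma adjusted p = 0.817). Of the 10 tested genes nearest to Tyro3, 0 passed in limma and 0 reached an unadjusted p under 0.05, and their differences ran from -0.42 for Mga to 0.37 for Vps39. The levels of Mall, Ckap2l, Bcl2l11 and Vps39 against the negative control rows were not examined.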
